A study of Mus musculus with 4 samples.

Results

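Open chromatin was described at 10 autophagy genes, Wipi1, Wipi2, Ulk1, Ulk2, Becn1, Atg5, Atg7, Atg16l1, Sqstm1 and Foxo1, in the mouse erythroblast line G1ER with and without the chromatin remodeller CHD7. A region belonged to a gene if it lay within the gene's span or had that gene's end as its nearest protein-coding gene end within 100 kb (GRCm38 RefSeq). This gave 19 of the 15328 accessible regions of the series, spread over 9 of the 10 genes. The gene set was chosen by the peak calls at Wipi1, where a region inside the gene was called in wild type only, so that difference is given as a description and not as a finding.

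The assay was ATAC-seq, in which a transposase cuts and tags accessible DNA. G1ER is an erythroblast line in which GATA1, the master factor of red cells, is present as a hormone-controlled fusion with the estrogen receptor, in cells whose own Gata1 gene is not functional. All 4 libraries came from 50000 cells grown with erythropoietin and stem cell factor, with no treatment. Of these, 2 were from cells labelled wild-type (replicate 1 labelled 1 h, replicate 2 labelled 2 h) and 2 from cells labelled Chd7-/- with the same labelled times. The protocol gives 1 to 2 h of transposase treatment. Since 1 code describes the knockout cells of both libraries, genotype and that cell source cannot be told apart, nor can replicate number and labelled time. No label describes separate cultures, and p-values then measure only a spread between libraries that may be technical.

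Macroautophagy encloses cell contents in a double membrane, the autophagosome, and delivers them to the lysosome. The ULK kinases start the process, a lipid kinase complex built around Beclin 1 marks the forming membrane with a phosphoinositide, WIPI proteins read that mark, and the ATG5, ATG7 and ATG16L1 proteins attach LC3 to the membrane. In maturing red cells this machinery clears mitochondria and other organelles, and Ulk1 and Atg7 are known to take part in that clearance.

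The deposited lists held 11084 to 12443 nuclear peaks per library. Read depth is unknown from such lists. As a proxy for depth, the lowest background behind the peaks was 0.787 fragments per base in wild-type replicate 1 and between 1.01 and 1.08 in the other 3 libraries. No region fell at Chd7 (0 of 15328), so the deletion could not be checked here. Of 12 erythroid marker genes, 9 had a region, and Epor, Tfrc and Kit were among those with one at a gene end in all 4 libraries, while Slc4a1, Hbb-b1 and Hba-a1 had none. Of the markers of other blood cells, 2 of 8 myeloid, 2 of 5 mast cell, 4 of 6 megakaryocyte and 1 of 8 lymphoid genes had a region.

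Most of the autophagy genes, 7 of 10, had a region at a gene end in every library. Such a region overlapped the RefSeq promoter window of Wipi1, Wipi2, Ulk1, Atg5 and Sqstm1. The RefSeq promoter sequences (GRCm38.p6) of 4 genes are given here, as examples of different calls at the start site and inside the gene. Wipi1 (chr11:109611390-109611639, minus strand) and Ulk1 (chr5:110810121-110810331, minus strand) had a promoter region called in all 4 libraries and an inner region called in wild type only. Wipi2 (chr5:142629334-142629532, plus strand), the paralog of Wipi1, had the promoter region without such an inner region. Foxo1 (chr3:52268087-52268336, plus strand) had no region at all. Only bases before the RefSeq start of the gene are printed, read 5′ to 3′ on the gene's strand, with matches on either strand to the motifs named after them in capitals.
Wipi1: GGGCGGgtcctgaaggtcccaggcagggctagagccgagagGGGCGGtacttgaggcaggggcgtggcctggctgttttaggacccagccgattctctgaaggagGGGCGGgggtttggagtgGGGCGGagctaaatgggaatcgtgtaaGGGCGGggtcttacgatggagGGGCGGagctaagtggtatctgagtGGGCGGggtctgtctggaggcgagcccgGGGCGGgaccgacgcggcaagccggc
Ulk1: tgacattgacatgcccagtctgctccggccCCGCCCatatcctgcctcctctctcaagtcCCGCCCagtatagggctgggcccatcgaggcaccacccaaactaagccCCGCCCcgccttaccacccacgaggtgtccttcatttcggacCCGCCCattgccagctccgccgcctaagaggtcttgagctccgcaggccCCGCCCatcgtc
Wipi2: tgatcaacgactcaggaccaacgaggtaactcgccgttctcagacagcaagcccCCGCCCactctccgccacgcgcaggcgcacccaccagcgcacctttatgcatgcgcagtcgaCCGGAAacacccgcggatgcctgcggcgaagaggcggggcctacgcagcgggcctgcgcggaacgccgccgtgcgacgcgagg
Foxo1: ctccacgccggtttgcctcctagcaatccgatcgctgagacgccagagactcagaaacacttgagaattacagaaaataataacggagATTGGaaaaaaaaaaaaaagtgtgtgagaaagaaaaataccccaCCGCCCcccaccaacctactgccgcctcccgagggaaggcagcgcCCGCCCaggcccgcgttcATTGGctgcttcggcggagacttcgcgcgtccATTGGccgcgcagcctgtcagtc

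The motifs were searched on both strands of the 250 bases before each start site in the table, which held a window for 8 of the 10 genes. They were GGGCGG, known to be bound by SP and KLF factors, and CCAAT, known to be bound by NFY. The ETS factor motif was searched as CCGGAA, the E-box of the TFEB family as CACGTG, the FOXO motif as GTAAACA, the GATA motif as AGATAA and the RUNX motif as TGTGGT. No match overlapped a match of another motif. The Wipi1 window held GGGCGG 8 times, all on the gene's strand. Of all 32851 promoter windows, 0.155% held it as often or more. Of the 7321 windows that overlapped a region called in all 4 libraries (open windows), 0.423% did. The Ulk1 window held it 5 times, all on the opposite strand. Counts were 3 at Sqstm1, 2 at Wipi2 and Foxo1, 1 at Atg5 and Ulk2 and 0 at Atg7. At Wipi2, 1 of these matches, at −49 to −44 from the start site, lay inside the gene's span and is not among the printed bases. Of all windows, 32.7% held GGGCGG at least once, and of the open windows 68.3% did. CCAAT was found only at Atg7 (4 times) and Foxo1 (3 times) among the 8 windows. It was in 33.8% of all windows and 39.7% of the open ones. Wipi2 had the 1 ETS match among the 8 windows, which 12.0% of all windows and 29.5% of the open ones had. The E-box occurred once each in the windows of Atg5 and Atg7, in 6.02% of all windows and in 9.94% of the open ones. The RUNX letters occurred once, at Sqstm1, in 14.0% of all windows and in 9.53% of the open ones. The GATA letters were in none of the 8 windows, in 9.99% of all windows and in 4.32% of the open ones. The FOXO letters were likewise in none of the 8, beside 3.17% of all windows and 1.72% of the open ones. A match is a run of letters and not a bound site.

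Calls across the libraries varied over the 19 regions. Of them, 7 were called in all 4 libraries (56.8% of all regions in the series were), 2 in exactly 3, 5 in exactly 2 and 5 in 1. Of the 15328 regions in the series, 1576 were called in exactly 3, 1725 in exactly 2 and 3322 in 1. All 7 lay at a gene edge, meaning within 1 kb of a protein-coding gene end, at Wipi1, Wipi2, Ulk1, Atg5, Atg7, Atg16l1 and Sqstm1. In all, 10 of the 19 regions were at a gene edge. Of these 10, 7 were called in every library, against 76.8% of gene-edge regions in the series. Those of Ulk2 and Becn1 were called in only 1 or 2 libraries. The other 9 regions lay away from gene edges and 0 of them were called in every library, against 36.4% in the series. These shares were not tested, because the genes were chosen with the calls known.

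Called in both wild-type and neither knockout library were 2 of the 19 regions, at Wipi1 and Ulk1 (2.25% of all regions in the series had these calls). Since that contrast chose the set, nothing is read from the count. Called in both knockout and neither wild-type library were 0 of the 19 (2.71% in the series). Without wild-type replicate 1, 5 regions were called in wild type alone, because 3 regions called in wild-type replicate 2 only, 1 near Wipi1 and 2 at Ulk2, then joined the pair. In the series, 5.63% of regions were called in wild-type replicate 2 only and likewise joined the 2.25%. Regions called in knockout alone then numbered 1, as they did without wild-type replicate 2, and 2 without knockout replicate 2. The regions of the series that joined its 2.71% in these 3 settings were 1.45%, 3.50% and 8.06% of all, in that order. Nothing is read from these counts.

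**Figure D1:**
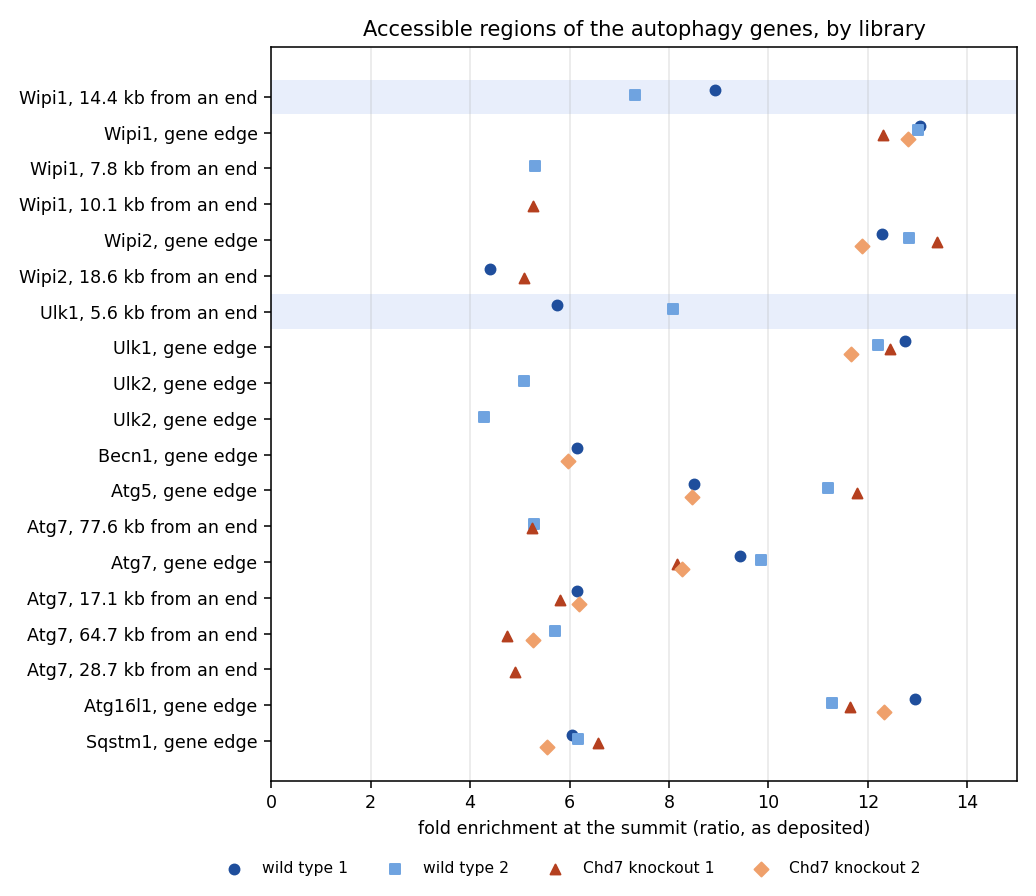
Fold enrichment at the summit (x axis, ratio as deposited) of the 19 regions (y axis, by gene and distance to the nearest gene end), with 1 marker per library and no marker where the region was not called; shaded rows are the regions called in both wild-type libraries only. The gene-edge regions of Wipi1, Wipi2, Ulk1 and Atg16l1 lie above 11 in every library, and the regions away from gene edges lie below 9.

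Wipi1, which encodes a WD-repeat protein that binds phosphoinositides on the forming autophagosome, lies on chromosome 11 from 109573521 to 109611389 on the minus strand. The region called in wild type only spans 109587674 to 109588202, 23451 bp inside the gene from its start site and 14417 bp from the other end. Exons were not annotated in the gene table, so whether it is intronic is not given here. Its summit pileup, the number of fragments over the highest base, was 29 in wild-type replicate 1 (95% Poisson interval 19.4 to 41.6, counting error only) and 28 in replicate 2 (18.6 to 40.5). Fold enrichment was 8.93 and 7.32, at percentiles 57.7 and 42.8 of the own lists, and −log10 q was 18.7 and 15.2. The summits of the replicates were 94 bp apart. In both knockout libraries no peak was called there.

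A knockout pileup below the calling limit is not the same as no accessibility. At the backgrounds of this region in wild type, 2.36 and 2.96 fragments, a pileup of 10 or 11 would have reached the weakest p-value called in either knockout library. Among the peaks that were called at backgrounds in that range, the lowest pileup was 12 in each knockout library. The background of the knockout libraries at this position is unknown. In bulk libraries, fewer cells with the site open and less opening per cell cannot be told apart. Of the 345 regions called in wild type only, this one had the highest pileup when the lower of the replicates was taken (28, against a median of 11). It ranked 5 by percentile of fold enrichment (42.8, against a median of 10.5). Both ranks use the wild-type values of a region that was picked for its calls, so nothing is read from them.

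The promoter of Wipi1 was open in every library. Its region (109611250 to 109612147) overlapped the start site and had summit pileups of 94 and 103 in wild type against 93 and 84 in knockout, replicate 1 first. Fold enrichments were close to 13.0 in wild type and were 12.3 and 12.8 in knockout. The genotypes did not overlap in pileup, by 1 fragment, as was the case with the same direction for 18.8% of the 8704 regions compared. After centring each library on its median, the log2 difference of knockout minus wild type was −0.07 with a standard error of 0.11 (95% interval −0.30 to 0.15), which is given without a p because the contrast chose this gene. Its mean pileup of 93.5 exceeded that of 98.7% of the regions called in all 4 libraries. The inner region reached 30.9% and 27.2% of the promoter's pileup in the wild-type replicates.

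Upstream of Wipi1, 2 further regions were each called once. The first, at 109619091 to 109619290, was called in wild-type replicate 2 alone, with a pileup of 10, and the one at 109621348 to 109621547 in knockout replicate 1 alone, with 11. Within 100 kb of the inner region there were 8 regions, itself included. Besides the Wipi1 promoter, 1 other was called in every library, nearest to Prkar1a, with pileups of 28 and 32 in wild type, against 33 and 27 in knockout. The remaining 5 were called in 1 library each. The window was centred on the inner region, which was picked for its calls in wild type only. In the series, 2.25% of regions were called in wild type only and 2.71% in knockout only. The lack of other such regions in this window is therefore not read as a result.

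By fold enrichment in the wild-type replicates, the 5 regions called in wild type only and most like the inner Wipi1 region were linked to Fcgr3, Cdca7, Tsc22d4, Nckap1l and Ets2. Likeness was the Euclidean distance of the log2 fold enrichments over these 2 libraries, and ran from 0.072 for Fcgr3 to 0.23 for Ets2. Their pileups, between 13 and 18, were below the 28 and 29 at Wipi1. The regions of Cdca7 and Nckap1l were at gene edges and the others were not.

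Wipi2, the paralog whose protein brings ATG16L1 to the membrane, lies on chromosome 5 from 142629533 to 142669672. Its promoter region (142629122 to 142629872) had pileups of 40 and 47 in wild type, against 48 and 38 in knockout, so the genotypes overlapped. The log2 difference was 0.06 with a standard error of 0.16 (limma, adjusted p = 0.954). Within each library the Wipi1 promoter had 1.94 to 2.35 times the pileup of the Wipi2 promoter. The second Wipi2 region, inside the gene at 142650910 to 142651291, was called in replicate 1 of each genotype, with pileups of 7 in wild type and 10 in knockout. It was thus split by replicate and not by genotype.

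**Figure D2:**
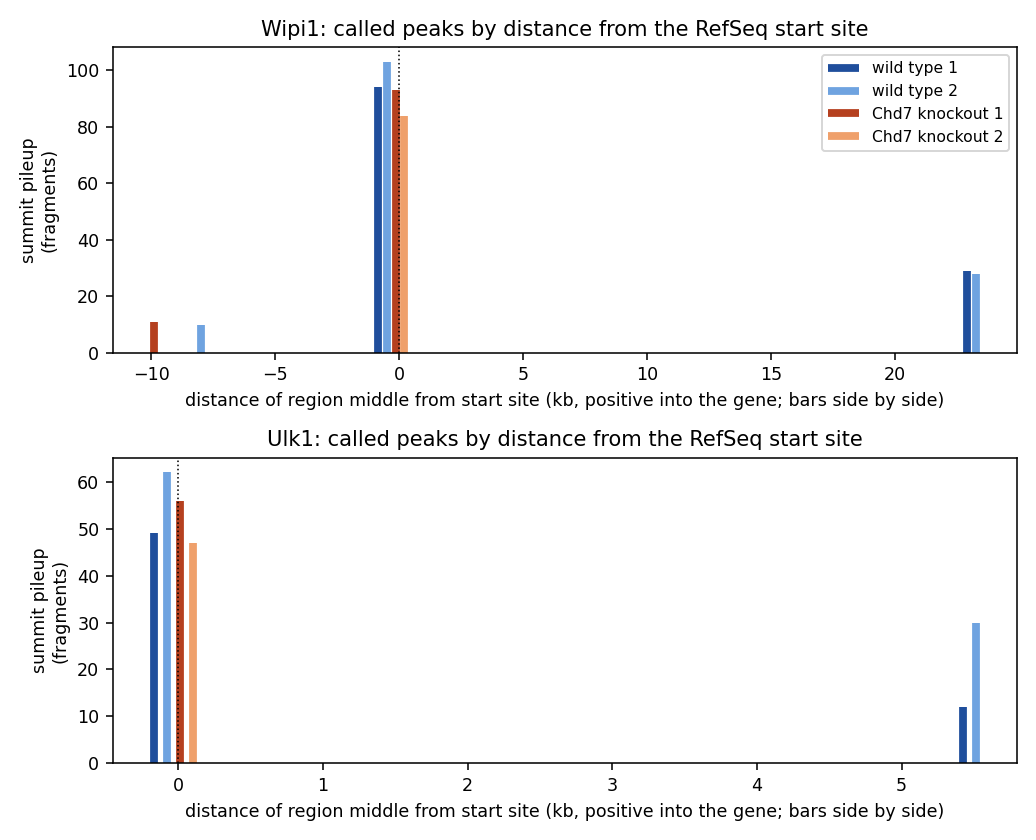
Summit pileup in fragments (y axis) of each called peak at Wipi1 (top) and Ulk1 (bottom) against the distance of its region from the RefSeq start site in kb (x axis), with 1 bar per library and the start site as a dotted line. At both genes the region at the start site has 4 bars, and the inner region, 23451 bp into Wipi1 and 5559 bp into Ulk1, has bars for the 2 wild-type libraries only.

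Ulk1, the kinase that starts autophagosome formation, lies on chromosome 5 from 110784489 to 110810120 on the minus strand. It held the other region called in wild type only, at 110804360 to 110804685, 5559 bp inside the gene from its start site. The replicates differed more here than at Wipi1: the pileup was 12 in wild-type replicate 1 (95% Poisson interval 6.20 to 20.96) and 30 in replicate 2 (20.2 to 42.8). Fold enrichment was 5.75 and 8.07, at percentiles 19.7 and 51.4, and −log10 q was 5.98 and 17.6. The summits lay 33 bp apart. At the backgrounds of the wild-type replicates, 1.26 and 2.84, a pileup of 7 or 11 would have reached the weakest p-value called in the knockout libraries. By the lower pileup the region ranked 112 of the 345. Wild-type replicate 1, with the pileup of 12, was also the library with the lowest background, and the part of depth in that gap was not tested.

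At the Ulk1 promoter (110809789 to 110810438) pileups were 49 and 62 in wild type, against 56 and 47 in knockout. The genotypes overlapped, with a log2 difference of −0.02 and a standard error of 0.14 (limma, adjusted p = 0.980). A window of 100 kb to each side of the inner Ulk1 region held 7 regions, of which 4 were called in every library and 1, the inner region itself, in wild type only. Both inner regions therefore lay in genes whose promoters were open in all 4 libraries.

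Ulk2, the paralog of Ulk1 on chromosome 11 (61775598 to 61855334, minus strand), differed from it in having no region called in more than 1 library. Its 2 regions, at 61854313 to 61854641 and 61855122 to 61855385, flank the start site at 61855092. Both were called in wild-type replicate 2 alone, with pileups of 11 and 9 at percentiles 11.9 and 3.19. That library had the highest value of the depth proxy (1.08), and the part of depth was not tested.

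Becn1, which encodes Beclin 1 of the lipid kinase complex, lies on chromosome 11 from 101288258 to 101302286 and had 1 region, over its end at 101302113 to 101302420. It was called in wild-type replicate 1, with a pileup of 10, and in knockout replicate 2, with 11. The calls thus crossed both genotype and labelled time. Fold enrichments of 6.16 and 5.97 placed it at percentiles 25.7 and 29.4. The other end of the gene had no region.

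Of the conjugation machinery, Atg5, Atg7 and Atg16l1 each had a region at a gene edge in every library. Atg16l1, whose protein places the conjugation complex on the membrane, had 1 region (chromosome 1, 87755747 to 87756416). Its pileups were 35 and 38 in wild type, against 36 and 36 in knockout, which before centring was the narrowest range of the 7 regions in relative terms. After centring on library medians it was not: log2 values ran from 0.43 to 0.62, against 1.00 to 1.12 at the Ulk1 promoter. The log2 difference was 0.06 with a standard error of 0.18 (limma, adjusted p = 0.955).

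Atg5, whose product is joined to ATG12, had 1 region over its start (chromosome 10, 44268167 to 44268745). Pileups were 15 and 27 in wild type, against 23 and 16 in knockout. The replicates of each genotype thus differed by more than the genotypes did, and the log2 difference was 0.01 with a standard error of 0.27 (limma, adjusted p = 0.993). By pileup, wild-type replicate 2 was the highest library and wild-type replicate 1 the lowest. By fold enrichment knockout replicate 1 was the highest and knockout replicate 2 the lowest, with 8.51 and 11.2 in wild type, against 11.8 and 8.45 in knockout.

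Atg7, the activating enzyme of both conjugation systems and at 217478 bp the longest of the 10 genes, had 5 regions, the most of any. The one at its start (chromosome 6, 114642928 to 114643464) was present in every library, with pileups of 19 and 25 in wild type, against 23 and 17 in knockout (log2 difference −0.05, standard error 0.26, limma adjusted p = 0.974). The promoter table gives its window for Atg7 at another start, 114671096, which no region overlapped. Inside the gene, the region at 114659989 to 114660386 was missing from wild-type replicate 2 only, with pileups of 10 in wild-type replicate 1 and 12 and 14 in knockout. The region at 114795793 to 114796090 was missing from wild-type replicate 1 only, with 12 in wild-type replicate 2 and 10 and 11 in knockout.

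A further region inside Atg7 (114831838 to 114832037) was called in knockout replicate 1 alone, with a pileup of 9. The fifth, 77622 bp outside the gene (114565392 to 114565619), was the farthest of the 19 from a gene end and was called in wild-type replicate 2 and knockout replicate 1, with 14 in each. It was the last region inside the limit of 100 kb, and 0 regions had an end of these genes nearest but beyond the limit. Knockout replicate 1 called all 5 Atg7 regions, and the other libraries 2 or 3.

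Sqstm1, the cargo receptor p62 that links ubiquitinated material to LC3, had a broad and weak region of 919 bp over its start (chromosome 11, 50210094 to 50211012). Pileups at the highest summit were 17 and 20 in wild type, against 19 and 13 in knockout, with fold enrichments of 6.04 and 6.18 against 6.58 and 5.56. The log2 difference was −0.14 with a standard error of 0.28 (limma, adjusted p = 0.932). The highest summit was not at 1 place: it lay 14 and 52 bp into the gene in replicate 1 of wild type and knockout, and 499 and 564 bp into it in replicate 2. That range of 550 bp was wider than in 99.3% of the regions called in all 4 libraries. In knockout replicate 2 the region was called as 2 separate peaks, the stronger of them 216 bp wide, and in the other libraries as 1 peak of 751 to 915 bp.

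Foxo1, a forkhead factor that can turn on autophagy genes, was the 1 gene of the 10 without a region. It spans 81773 bp of chromosome 3 (52268337 to 52350109), and the nearest region lay 523692 bp from its ends and was linked to Maml3. Its promoter window had a GC content of 56.0%, against a median of 62.4% for windows that overlapped a region called in all 4 libraries and 52.4% for all windows. A gene without a called peak can still be accessible below the calling limit.

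Over the 7 regions called in every library, 3 were higher and 4 lower in knockout, with log2 differences from −0.14 to 0.06. Their median was −0.02, beside 0.02 over all 8704 regions fitted. The pileups of the genotypes did not overlap, with knockout lower, at 1 of the 7 (18.8% of all regions). That was the promoter of Wipi1, the gene that the contrast chose. In the other direction it was 0 of the 7 (9.21% of all regions). In limma, of the 6 outside Wipi1, 0 passed after Benjamini-Hochberg adjustment over all regions, and 0 had an unadjusted p under 0.05 (776 of all 8704 regions did). Over all regions, 15 passed as higher in knockout (0.172%) and 2 as lower (0.023%). The 95% intervals of the 6 reached from −0.69 to 0.55 at their widest, and those for Ulk1 from −0.30 to 0.26. With 2 libraries a genotype, changes of any size inside these intervals remain possible. The intervals are unadjusted and are not a detection limit, since a call needed an adjusted p under 0.05 over all 8704 regions. Changes somewhat beyond them could also have been missed. The directions depended on the scaling. When libraries were scaled by their lowest background, all 7 were lower in knockout, but the median of all regions also moved, from 0.02 to −0.21. The calls over all regions then divided into 3 higher and 23 lower. With the deposited fold enrichment, 6 of the 7 were higher in knockout, and over all regions 0 passed (596 at an unadjusted p under 0.05). The number of regions passing over the whole table was 17, and was 0 without wild-type replicate 1 (464 at an unadjusted p under 0.05), 0 without wild-type replicate 2 (566), 5 without knockout replicate 1 and 14 without knockout replicate 2.

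**Figure D3:**
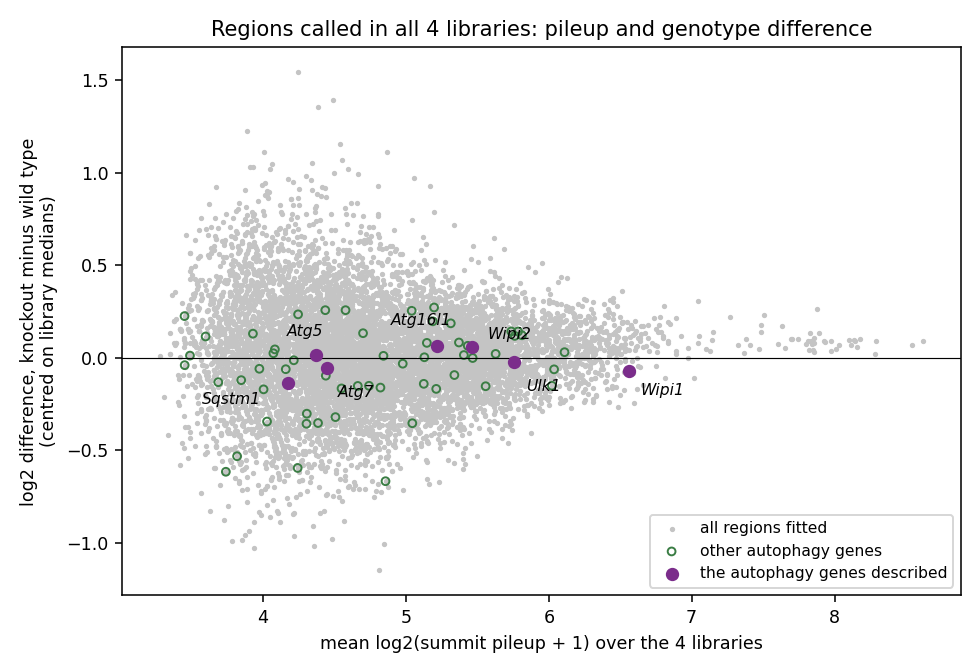
Log2 difference in summit pileup, knockout minus wild type (y axis), against the mean log2 pileup over the 4 libraries (x axis) for the 8704 regions called in all of them. The 7 regions of the genes described (purple, named) lie between −0.14 and 0.06, and green circles are the 57 regions of 60 other autophagy genes.

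Most other genes of the pathway also had a region at a gene end in every library. A list of 60 other autophagy genes had 89 regions, with 57 of them shared by the 4 libraries (56.8% of all regions in the series were), 9 called in exactly 3, 6 in exactly 2 and 17 in 1. In the series these last 3 counts were 1576, 1725 and 3322 of 15328. Of the 89, 0 were called in wild type only and 0 in knockout only, beside 2.25% and 2.71% in the series. Of the 60 genes, 58 had a region and 46 (76.7%) had one within 1 kb of their own end in every library, as 7 of the 10 genes above (70.0%) and 32.0% of all 21883 protein-coding genes did. These shares were not tested against each other.

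The role groups hold only genes of this list, so the kinases Ulk1 and Ulk2 are not counted, and Ulk2 had no region called in every library. By role, the 3 listed genes of the ULK complex (Rb1cc1, Atg13 and Atg101) and all 6 genes of autophagosome fusion, such as the SNARE genes Stx17, Snap29 and Vamp8, had such a region. So did 8 of 9 genes of lipid transfer and membrane supply, with Wdr45 the exception, and 8 of 9 cargo receptor and adaptor genes, with Wdfy3 the exception. The LC3 and GABARAP family had it in 4 of 5, Map1lc3a being without. The lipid kinase complex and its regulators had it in 5 of 8, the conjugation enzymes in 5 of 8, the nutrient-sensing kinases with Keap1 in 4 of 7, and the transcription factors in 3 of 5, at Tfeb, Foxo3 and Foxo4. Foxo3 and Foxo4 thus had a region at a gene end in every library, where their relative Foxo1 had none.

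**Figure D4:**
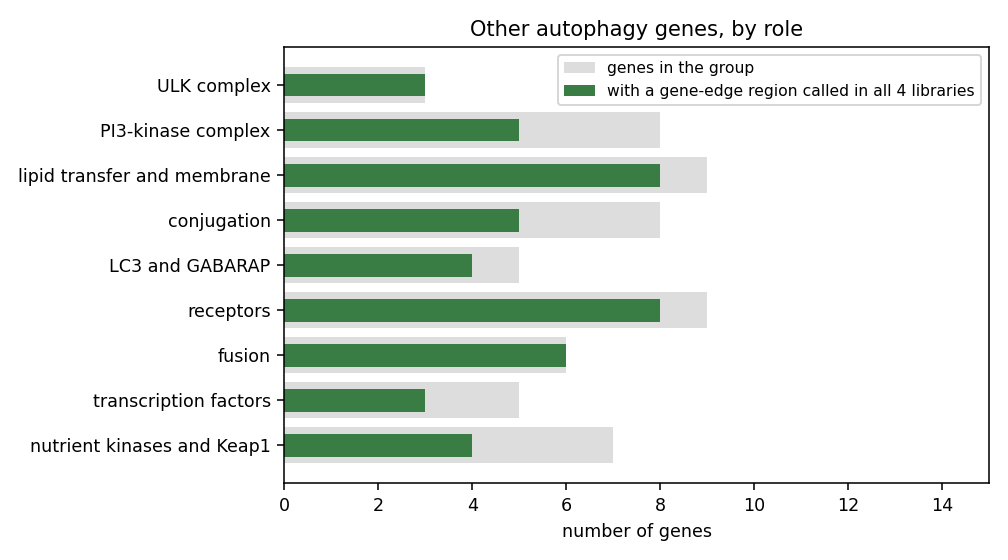
Number of genes (x axis) in each role group of the 60 other autophagy genes (y axis), as grey bars, and of those with a region within 1 kb of their own end called in all 4 libraries, as green bars. All listed genes have such a region in the ULK complex group (3 of 3, Ulk1 and Ulk2 not counted) and the fusion group (6 of 6). In the lipid kinase complex, conjugation enzymes, transcription factors and nutrient kinases, some listed genes lack one.

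In limma 0 of the 57 shared regions of this list passed, 3 had an unadjusted p under 0.05 (776 of all 8704 regions did), and the median log2 difference of the 57 was −0.01. The 3 were chosen here after their values were seen, and all were lower in knockout. At Atg14, a subunit that targets the lipid kinase complex to autophagosomes, pileups of the region at 47568248 to 47568728 on chromosome 14 were 29 and 46 in wild type, against 24 and 19 in knockout (log2 difference −0.67, standard error 0.22, limma adjusted p = 0.222). At Vmp1, a membrane protein of autophagosome formation (chromosome 11, 86683548 to 86684107), they were 16 and 16 in wild type, against 10 and 9 in knockout (−0.62, standard error 0.28, limma adjusted p = 0.490). At Tfeb, the factor that drives lysosomal and autophagy genes (chromosome 17, 47736960 to 47738008), they were 25 and 21 in wild type, against 15 and 13 in knockout (−0.60, standard error 0.28, limma adjusted p = 0.509). At each of the 3, picked by their low p, the genotypes did not overlap, as at 18.8% of all regions in this direction, and none was called by the adjusted test. The second regions of Atg14 (chromosome 14, 47594465 to 47594923) and Vmp1 (chromosome 11, 86586809 to 86587413), also called in all 4 libraries, had log2 differences of −0.04 and 0.12.

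Per library, wild-type replicate 1 had 12 of the 19 regions, replicate 2 had 14, knockout replicate 1 had 13 and replicate 2 had 10. The peaks at these genes made up 0.108% and 0.116% of the wild-type lists, against 0.104% and 0.0967% of the knockout lists. The wild-type shares count the inner Wipi1 region, whose calls in wild type only chose the set. The order of the genotypes in these shares is therefore not read as a result. The exact binomial 95% intervals of these shares, which cover counting only, overlapped throughout, with lower bounds of 0.0483% to 0.0636% and upper bounds of 0.173% to 0.195%.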

How the data were processed

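Each of the 4 ATAC-seq libraries had a deposited list of peaks. Per the submitters' processing notes, the tools were MACS2 2.1.0 and Bowtie2 2.2.1, with no role or order stated. Peak names in the deposited lists give the build GRCm38, and positions are printed from base 1. Calling threshold, control, transposase shift, duplicate handling and blacklist: not given in the sources used here. The deposited score is about 10 times −log10 q. The deposited fold enrichment is a ratio of pileup plus 1 to local background plus 1. The authors' −log10 p and −log10 q were used as deposited, within each list. Total depth is unknown.

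Whole-number summit pileups and backgrounds were recovered from fold enrichment and p in all but 1 peak per library (tolerance 0.001 in −log10 p), assuming that the caller did not rescale. Peaks that overlapped or touched were merged. Where a library had several peaks in a region, the one with the highest fold enrichment gave its value. Log2(pileup + 1), centred on library medians, was compared over the 8704 regions with a value in all 4 libraries, with limma 3.58.1 (eBayes with trend, R 4.3.3) and Benjamini-Hochberg adjustment. Replicate numbers did not pair the libraries (correlation of deviations 0.00217). Python 3.11.15 (pandas 2.3.3, numpy 2.4.6, scipy 1.17.1) did the rest, and the pileup recovery and limma fit were tested on simulated data. Gene spans and promoter windows came from RefSeq GRCm38.p6.

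Members, lists and role groups were chosen with earlier results of these data known. All 10 genes are named. Of the other autophagy genes, those with a region exclusive to a genotype or past limma were to be named. There were none, so names there were chosen after the values were seen. The planned permutation test of the peak share was not used, because the contrast chose Wipi1.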

Additional observations from a re-analysis of the deposited data

How the results depend on the processing

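The 7 regions called in all 4 libraries and the 2 called in wild type only kept their numbers with −log10 q of at least 5, lists of equal length, summit windows, links within 50 kb and gene spans alone. The 19 regions became 13, 17, 19, 18 and 16 under these settings. Requiring overlap by 50% of the shorter peak also left 2 in wild type only. With 1 library left out, regions called in wild type only numbered 2 to 5, in knockout only 0 to 2, and in all remaining libraries 7 to 8. These changes follow from requiring fewer calls. The median log2 difference over the 7 regions was −0.02, −0.08 to 0.04 with 1 library left out, and −0.25 when scaled by the lowest background. Member regions past limma were 0 in every setting run. Over all regions 17 passed, 26 when scaled by the lowest background, 3 with quantile normalisation, 0 with deposited fold enrichment (596 at an unadjusted p under 0.05) and 0 to 14 with 1 library left out. The cause was not tested. A genotype left with 1 library is assumed to vary like the other. With the replicate block 21 passed, and no member call changed. Pileups of 7 to 30 away from promoters limit what can be seen there, and no value exists where a peak was not called.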
